A study of Mus musculus with 12 samples.

Results

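The genes described here are 10 standard readouts of endoplasmic reticulum (ER) stress, measured by bulk RNA sequencing of mouse hearts after treadmill running or cage life. They were taken by symbol from the deposited table of read counts per gene, after the version number of each Ensembl identifier was removed, and all 10 were found among its 55401 rows. The series asks how moderate endurance exercise affects the heart in each sex. It holds 12 libraries in 4 groups of 3, which are exercised female, sedentary female, exercised male and sedentary male hearts. All mice were wild-type C57BL/6J, an inbred laboratory strain, and no group carried an engineered allele. Training lasted 6 weeks, with 45 min of treadmill running at 1 km/h on 5 days of each week, while age-matched sedentary mice were left in their cages. Not given in the sources used here are the age itself, the part of the heart taken and the time between the last run and tissue collection. The labels do not state in words that each library is a separate animal, so p-values measure the spread between these libraries. Libraries are numbered 1 to 3 within a group only to name them.

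Proteins that are secreted or inserted into membranes fold in the ER, and unfolded protein there is sensed by IRE1, PERK and ATF6, which together start the unfolded protein response. IRE1 splices the mRNA of the transcription factor XBP1, ATF6 is cut to release a transcription factor, and PERK phosphorylates the translation factor eIF2-alpha, which lowers protein synthesis but favours translation of ATF4. ATF6 and spliced XBP1 act on genes of chaperones and of ER-associated degradation, while ATF4 acts on amino acid genes and on Ddit3. In mouse hearts the response is known from ischaemia and pressure overload. Gene counts show only the amount of mRNA: they do not separate spliced from unspliced Xbp1, nor do they show translation of Atf4.

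The members fall into a group of 6 that fold protein in the ER lumen (Hspa5, Hsp90b1, Dnajb9, Pdia4, Creld2 and Sdf2l1), 3 transcription factors (Atf4, Ddit3 and Xbp1) and Herpud1, which serves degradation. Promoter windows from RefSeq on the mouse build GRCm38.p6, from 250 bases before to 50 bases after the annotated start, matched 10 of 10 members. The ER stress response element known from Hspa5, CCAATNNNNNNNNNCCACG, was searched on both strands, along with TGACGTGG, a sequence bound by ATF6 and spliced XBP1, and with TGATGCAA and TGATGAAA, a pair of C/EBP-ATF sequences of the kind bound by ATF4. None of these motifs overlaps another in the windows below. Only exact matches to these letters were counted. The windows that held a match are shown, with the defined bases of the match in capitals and the strand of the gene read 5′ to 3′.
Hspa5: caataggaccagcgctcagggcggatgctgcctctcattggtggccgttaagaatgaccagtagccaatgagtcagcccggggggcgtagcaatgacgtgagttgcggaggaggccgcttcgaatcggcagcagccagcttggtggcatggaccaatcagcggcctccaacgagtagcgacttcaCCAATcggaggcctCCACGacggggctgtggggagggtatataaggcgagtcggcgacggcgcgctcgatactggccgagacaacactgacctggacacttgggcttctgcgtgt
Hsp90b1: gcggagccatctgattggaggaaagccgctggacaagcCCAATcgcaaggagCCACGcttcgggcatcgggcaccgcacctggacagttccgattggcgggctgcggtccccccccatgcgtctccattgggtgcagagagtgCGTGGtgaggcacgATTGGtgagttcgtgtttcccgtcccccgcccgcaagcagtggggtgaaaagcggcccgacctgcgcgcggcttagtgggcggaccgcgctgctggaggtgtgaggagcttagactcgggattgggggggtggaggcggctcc
Creld2: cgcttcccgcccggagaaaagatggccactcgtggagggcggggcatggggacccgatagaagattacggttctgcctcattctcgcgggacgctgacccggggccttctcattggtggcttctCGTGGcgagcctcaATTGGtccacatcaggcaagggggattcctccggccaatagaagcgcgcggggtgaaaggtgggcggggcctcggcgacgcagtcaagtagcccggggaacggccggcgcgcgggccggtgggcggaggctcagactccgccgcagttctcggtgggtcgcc
Herpud1: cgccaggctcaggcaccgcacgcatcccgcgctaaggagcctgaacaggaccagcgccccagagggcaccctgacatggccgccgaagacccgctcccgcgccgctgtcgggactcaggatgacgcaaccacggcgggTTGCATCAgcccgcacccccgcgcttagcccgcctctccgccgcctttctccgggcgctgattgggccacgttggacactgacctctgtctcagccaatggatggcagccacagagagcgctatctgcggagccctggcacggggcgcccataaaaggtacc

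On GRCm38.p6 these windows are chr2:34771840-34772139 on the plus strand for Hspa5, chr10:86705395-86705694 on the minus strand for Hsp90b1, chr15:88819396-88819695 on the plus strand for Creld2 and chr8:94386179-94386478 on the plus strand for Herpud1. The ER stress response element stood in 3 of 10 members, against 37 of 27025 genes with a window (0.137%). Hspa5 held 1 copy from -65 to -47 of the start, Creld2 held 1 on the other strand from -126 to -108, and Hsp90b1 held a copy on each strand, from -212 to -194 and from -107 to -89. TGATGCAA stood in Herpud1 only, on the other strand from -112 to -105, while 1.03% of all genes held it. The Herpud1 window also holds attgggccacg, where CCACG follows CCAAT as read on the other strand. That arrangement was not searched, so the matches do not set Herpud1 apart from the folding genes. TGACGTGG (0.714% of genes) and TGATGAAA (1.15%) stood in no member. Atf4, Ddit3, Xbp1, Dnajb9, Pdia4 and Sdf2l1 held no exact match in their windows, which says nothing about sites elsewhere or with other letters or spacing. Among other genes of the pathway, the ER stress response element stood in 5 of 19 chaperones and folding enzymes with a window (Calr, Canx, Dnajc3, Ero1b and Pdia6), in 2 of 14 degradation genes (Derl3 and Syvn1) and in 0 of 22 ATF4 and integrated stress response targets. A match describes the sequence and is not evidence of binding.

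Total counts per library ran from 22204349 to 32566240, and 16213 of the 55401 rows passed a filter on low counts, among them all 10 members, whose counts lay between 153 and 29778. Levels are given as CPM, counts scaled to a common library size. The 8 cardiomyocyte markers summed to between 62273.7 and 73324.3 CPM, so the heart label held in every library. The 7 markers of plasma and B cells, a lineage rich in ER, summed to no more than 3.60 CPM. In 3 female libraries (exercised 2, sedentary 1 and sedentary 2) atrial Myl7 was above 10 CPM, and the 6 atrial markers summed to 393, 424 and 273 CPM in them, with 42.0 to 257 CPM in the others. In these 3 libraries the 7 erythroid markers summed to 293, 3630 and 1748 CPM, with 8.26 to 86.2 CPM in the others, and the 6 adipocyte markers to 105, 14.8 and 12.1 CPM, with at most 7.70 CPM in the others. Of the erythroid markers 5 were tested, with a median log2 fold change of -3.96 for exercise in females and of 5.89 for sedentary females over sedentary males. The part of these cells in the members' levels was not tested beyond leaving the 3 libraries out. In bulk tissue, fewer cells of a type and less RNA per cell cannot be told apart.

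In the GENCODE annotation of GRCm38, counted from 1, the folding genes lie at chr2:34771970-34777547 (Hspa5), chr10:86690209-86705509 (Hsp90b1), chr12:44205559-44210326 (Dnajb9), chr6:47796141-47813430 (Pdia4), chr15:88819646-88826683 (Creld2) and chr16:17130138-17132383 (Sdf2l1). The transcription factor genes lie at chr15:80255184-80257541 (Atf4), chr10:127290774-127296288 (Ddit3) and chr11:5520659-5525893 (Xbp1), and Herpud1 at chr8:94386438-94395377. Per kilobase of exon, Hspa5 was the most abundant member and Sdf2l1 the least. Averaged over the 12 libraries, Hspa5, which encodes BiP, the main ER chaperone of the HSP70 family, stood at 222 CPM per kb. It was followed by Herpud1 (119 CPM per kb), Hsp90b1 (96.3), Atf4 (72.5), Dnajb9 (31.7), Xbp1 (29.8), Ddit3 (22.9), Pdia4 (17.4), Creld2 (14.8) and Sdf2l1 (11.4). Most neighbours in this order kept it in at least 11 of 12 libraries. The exceptions were Herpud1, which was above Hsp90b1 in 9 libraries, and Dnajb9, which was above Xbp1 in 9, so these neighbours lay within the spread of libraries. The spread of a member over all libraries, as a coefficient of variation of CPM, was smallest for Dnajb9 (11.5%) and largest for Sdf2l1 (33.4%), whose highest library held 3.13 times the level of its lowest.

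**Figure D1:**
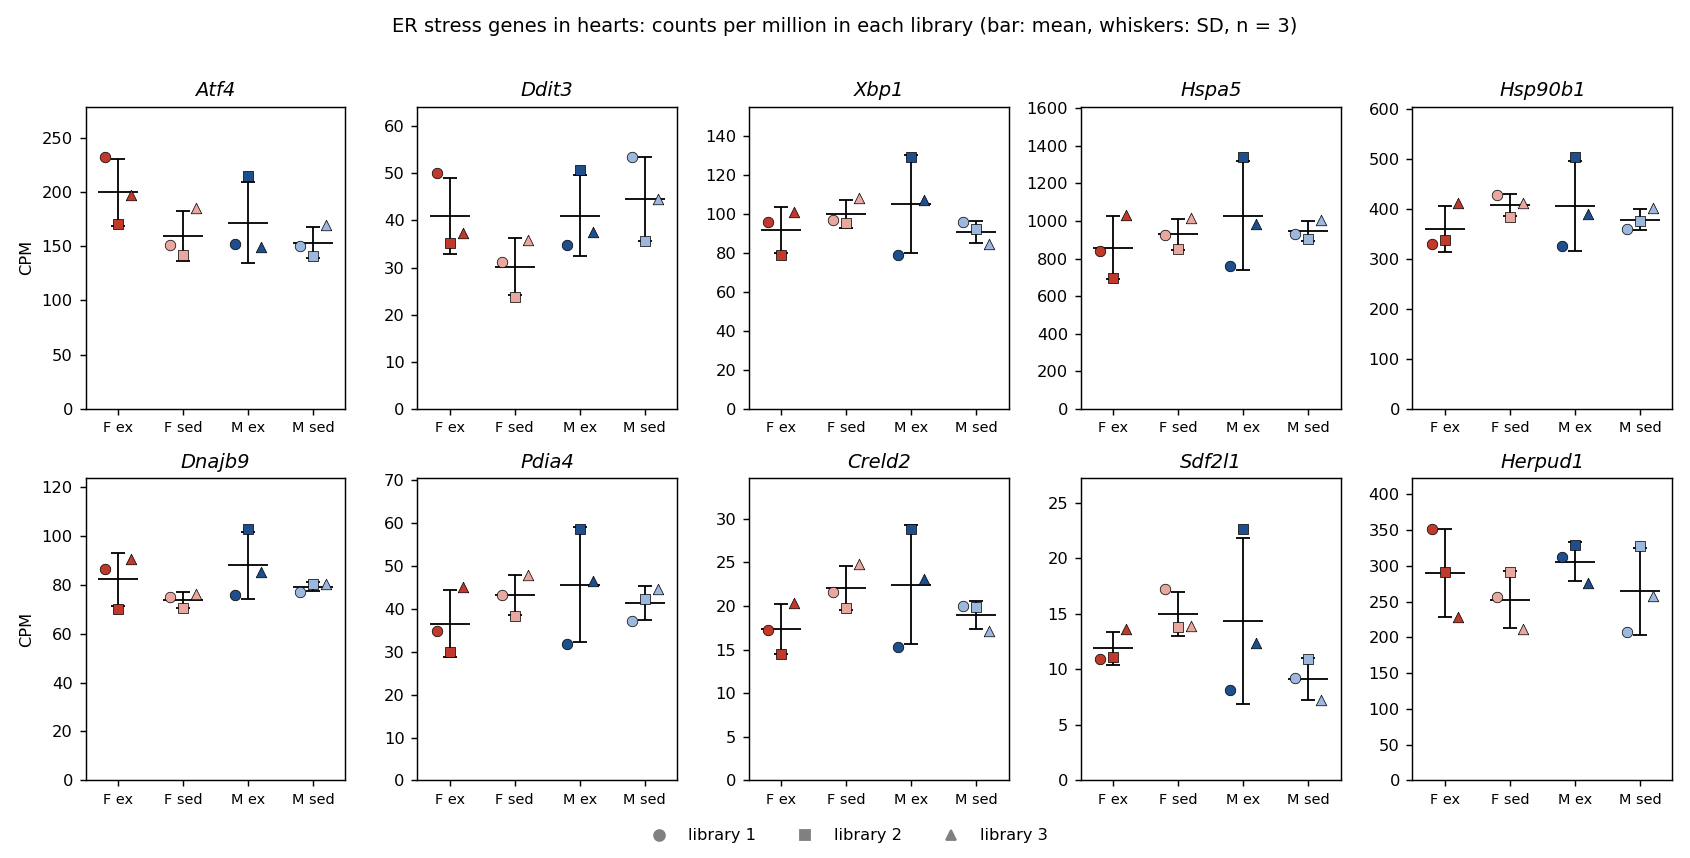
CPM of each ER stress gene (vertical axis, from 0) in each library (points, with the library number as the symbol) of exercised females (F ex), sedentary females (F sed), exercised males (M ex) and sedentary males (M sed), with the group mean and SD (n = 3). The exercised males have the widest spread for all 6 folding genes, with library 2 of that group highest each time, for example at 1340 CPM for Hspa5.

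Among the folding genes, no group of exercised hearts was set apart from its sedentary hearts except for Sdf2l1 in females. Hspa5 stood at 842, 697 and 1032 CPM in exercised females and at 925, 849 and 1016 CPM in sedentary females. It stood at 761, 1340 and 986 CPM in exercised males and at 932, 903 and 1007 CPM in sedentary males. Exercised hearts overlapped sedentary hearts in both sexes, and the extremes in males, library 1 low and library 2 high, were both exercised. Sdf2l1, an ER protein that assists BiP and its co-chaperones, stood at 10.9, 11.1 and 13.6 CPM in exercised females and at 17.3, 13.8 and 13.9 CPM in sedentary females. In exercised males it stood at 8.12, 22.6 and 12.4 CPM, and in sedentary males at 9.21, 11.0 and 7.23 CPM. All 3 exercised females lay below all 3 sedentary females, by a margin of less than 1 CPM, while the exercised males spanned the levels of the sedentary males. Of the 16213 genes that passed the filter, 9.79% likewise did not overlap between exercised and sedentary females.

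Creld2, an ER-resident protein with a disulfide isomerase activity that is released under ER stress, was at 17.3, 14.5 and 20.3 CPM in exercised females and at 21.6, 19.8 and 24.8 CPM in sedentary females. It was at 15.3, 28.8 and 23.1 CPM in exercised males and at 20.0, 19.8 and 17.1 CPM in sedentary males. Only the highest exercised female reached the sedentary females, and in males the exercised libraries again lay on both sides of the sedentary ones. Dnajb9, a J-domain co-chaperone of BiP that restrains IRE1, was at 86.1, 69.9 and 90.3 CPM in exercised females and at 74.9, 70.2 and 76.3 CPM in sedentary females. It was at 75.6, 103 and 85.1 CPM in exercised males and at 77.0, 80.4 and 80.1 CPM in sedentary males, so that its sedentary libraries were closer together than its exercised ones in both sexes. Hsp90b1, the ER chaperone of the HSP90 family, averaged 360 ± 46.1 CPM in exercised females and 408 ± 21.9 CPM in sedentary females, with 406 ± 90.5 CPM in exercised and 379 ± 21.0 CPM in sedentary males (SD, n = 3). Pdia4, a protein disulfide isomerase, averaged 36.6 ± 7.73 CPM in exercised females and 43.2 ± 4.72 CPM in sedentary females, with 45.7 ± 13.5 CPM in exercised and 41.4 ± 3.91 CPM in sedentary males. Hsp90b1 shares 415 exon bases with the pseudogene 1810014B01Rik on the other strand, and the strand setting of the counting is not given, so part of its counts is uncertain.

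Within females, the transcription factors Atf4 and Ddit3 had higher means in exercised hearts and Xbp1 in sedentary hearts. Within males, Atf4 and Xbp1 had higher means in exercised hearts and Ddit3 in sedentary hearts. Atf4, the effector of the PERK branch, stood at 232, 170 and 197 CPM in exercised females and at 151, 142 and 185 CPM in sedentary females. It stood at 151, 214 and 149 CPM in exercised males and at 150, 140 and 169 CPM in sedentary males. In females only library 2 of the exercised group lay within the sedentary range, and in males only library 2 of the exercised group stood above it. Ddit3, which encodes the pro-apoptotic factor CHOP, stood at 50.2, 35.2 and 37.4 CPM in exercised females and at 31.1, 23.7 and 35.8 CPM in sedentary females. In exercised males it stood at 34.8, 50.8 and 37.5 CPM, and in sedentary males at 53.5, 35.7 and 44.6 CPM. The groups overlapped in both sexes, and the lowest of all 12 values was in a sedentary female. Ddit3 shares 68 exon bases with Mars on the other strand. Xbp1, counted over all its transcripts, averaged 91.8 ± 11.7 CPM in exercised females and 99.9 ± 6.95 CPM in sedentary females, with 105 ± 25.3 CPM in exercised and 90.8 ± 5.68 CPM in sedentary males (SD, n = 3).

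Herpud1, an ER membrane protein that holds together the complex which passes misfolded proteins to the proteasome, stood at 352, 291 and 229 CPM in exercised females and at 256, 291 and 211 CPM in sedentary females. It stood at 313, 329 and 276 CPM in exercised males and at 207, 328 and 257 CPM in sedentary males. Its levels overlapped between exercised and sedentary hearts of both sexes, and its highest library, female exercised 1, was not the one in which the folding genes were highest.

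The folding genes and Xbp1 varied together between hearts of the same group, and 1 library of exercised males stood out. Male exercised 2 had the highest level of its group for 10 of 10 members and the highest of all 12 libraries for 7: Hspa5, Hsp90b1, Dnajb9, Pdia4, Creld2, Sdf2l1 and Xbp1. Male exercised 1 had the lowest of its group for 8, including all 6 folding genes. On the log2 scale, the median deviation of the members from the group mean was 0.34 in male exercised 2 and -0.34 in male exercised 1. The median over all 16213 tested genes was within 0.01 of 0 in each library, which scaling and centring on the group mean bring about. Over all tested genes the median absolute deviation was 0.125 in male exercised 2 and 0.103 in male exercised 1. The summed level of the members was 2781 CPM in male exercised 2 and between 1735 and 2178 CPM in the other 11 libraries. In females, exercised 3 was highest of its group for 7 members and all 6 folding genes, sedentary 2 was lowest of its group for 9, and exercised 2 for 7. The shares of all tested genes with such ranks in these libraries were not counted.

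**Figure D2:**
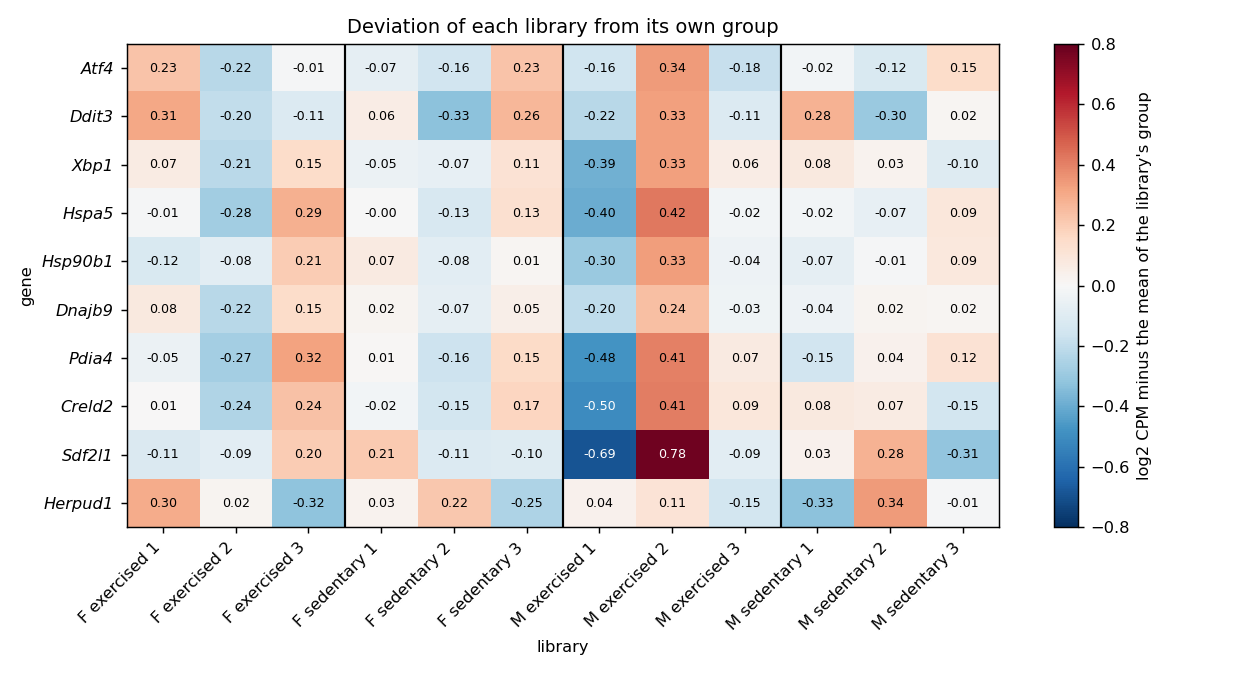
Log2 CPM minus the mean of the library's own group (colour and printed value) for each ER stress gene (rows) in each library (columns; F and M stand for female and male). Male exercised 2 is red in every row, from 0.11 for Herpud1 to 0.78 for Sdf2l1, and male exercised 1 is blue in all rows but Herpud1.

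As a description over the 12 libraries, which share their group means and scaling, Pearson's r between the deviations of 2 folding genes ran from 0.73 to 0.96 over the 15 pairs, with a median of 0.88. Without male exercised 2 the range was 0.40 to 0.95 and the median 0.79. Xbp1 followed the folding genes (median r 0.88, and 0.79 without male exercised 2), and its closest partner was Creld2, at 0.99 with that library and 0.98 without it. Atf4 and Ddit3 went with each other, at 0.82 and 0.76. Their median r with the folding genes was 0.60 for Atf4 and 0.48 for Ddit3, which came to 0.32 and 0.25 without male exercised 2. Herpud1 did not follow the folding genes: its r with them lay between -0.26 and 0.08, with a median of -0.19, and of -0.43 without male exercised 2.

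Other stress genes and the markers were measured in male exercised 2 as well. Its 14 heat shock genes, most of them cytosolic, summed to 9448 CPM, with 6790 to 8185 CPM in the other libraries, and their mean deviation from the group was 0.25 on the log2 scale. Its 14 immediate early genes, which respond to acute stimuli and to tissue handling, summed to 10562 CPM, with 3870 to 9681 CPM elsewhere, and deviated by 0.44. Another 22 ER chaperones and folding enzymes summed to 2267 CPM, with 1771 to 2080 CPM elsewhere, and deviated by 0.15. Its cardiomyocyte markers deviated by 0.023, its 7 macrophage markers by 0.0023, its 6 endothelial markers by 0.0038 and its 7 fibroblast markers by -0.16, the fibroblast sum of 808 CPM being the lowest of the 12 libraries. Its 7 smooth muscle and pericyte markers deviated by -0.085, and their sum of 657 CPM was also the lowest. Over all tested genes its median absolute deviation was 0.125, the highest of the 12, where the others lay between 0.0832 and 0.108. The part of handling or of tissue composition in these levels was not tested.

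The genes most like the members over the 12 libraries were sought outside the list, by the correlation of their log2 deviations with the members' mean standardised deviation. The closest 5 were Pdia3, an ER disulfide isomerase that works with calreticulin (r 0.979), Rasgef1b, an exchange factor for small GTPases (0.979), Hnrnpm, an RNA-binding splicing factor (0.959), Lmcd1, a LIM domain protein of heart and muscle (0.945) and H3f3b, which encodes a replication-independent histone H3 (0.945). Without male exercised 2 these values lay between 0.848 for Lmcd1 and 0.961 for Pdia3. As the highest of all tested genes outside the members, these values are high by selection. The 50 most alike came from the 16213 tested genes without the members. They held 5 of the other 22 ER chaperones and folding enzymes, Calr, Pdia3, Hyou1, Dnajc3 and Manf, and Gdf15 of the ATF4 and integrated stress response targets. No gene of the other pathway, heat shock and immediate early lists was among them.

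Exercise left the ER stress genes of female hearts without a change that passed the test. The folding genes other than Dnajb9, and Xbp1, had lower means in exercised than in sedentary females, and Atf4, Ddit3, Herpud1 and Dnajb9 had higher means. With edgeR's quasi-likelihood test and Benjamini-Hochberg adjustment over all 16213 genes, 0 members and 0 genes (0%) had an adjusted p under 0.05, the limit for calling a gene. At an unadjusted p under 0.05 there were 0 members, beside 637 genes (3.93%), and the groups did not overlap for 1 member, Sdf2l1, beside 9.79% of genes. DESeq2 called 1 gene, which was no member, and limma's voom 0.

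The log2 fold change of exercised over sedentary females was 0.44 ± 0.21 for Ddit3 (SE; unadjusted p = 0.0646 by edgeR), a ratio of 1.36, with a 95% interval from -0.03 to 0.91. For Atf4 it was 0.32 ± 0.16 (unadjusted p = 0.0664 by edgeR), with an interval from -0.026 to 0.67. These intervals reach 0 at their lower end, and the log2 fold change of Ddit3 came to 0.26 without female exercised 1 and 0.58 without female sedentary 3. On the other side of 0 lay Creld2 at -0.34 ± 0.20 and Sdf2l1 at -0.34 ± 0.31, Pdia4 at -0.24 ± 0.21, Hsp90b1 at -0.18 ± 0.13, Xbp1 at -0.12 ± 0.15 and Hspa5 at -0.12 ± 0.19. Hspa5 was the only member whose direction in females turned when a library was left out, to 0.010 without female exercised 2. Herpud1 was at 0.20 ± 0.19 and Dnajb9 at 0.15 ± 0.11. Herpud1 came to 0.036 without female exercised 1, and to 0.46 without the 3 libraries with atrial transcripts. Without female exercised 1, Atf4 came to 0.20. Without female exercised 2, Pdia4 came to -0.11, Xbp1 to -0.023 and Dnajb9 to 0.26. Without female exercised 3, Pdia4 came to -0.42, Hsp90b1 to -0.29, Xbp1 to -0.20 and Dnajb9 to 0.079. Sdf2l1 came to -0.18 without the libraries with atrial transcripts. In all, 4 of 10 members lay above 0 with a median of -0.12, while 50.1% of all tested genes lay above 0. The median of the members was -0.24 without female exercised 3 and -0.0069 without female exercised 2.

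**Figure D3:**
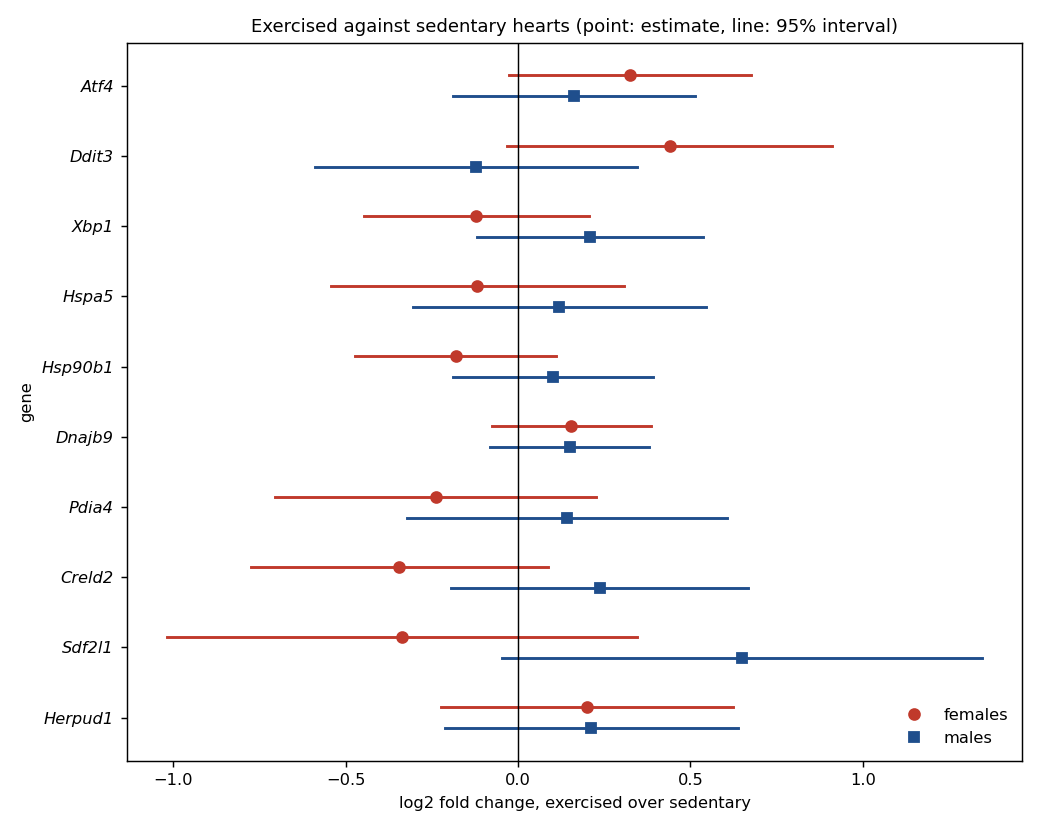
Log2 fold change of exercised over sedentary hearts (horizontal axis; point, estimate; line, 95% interval) for each ER stress gene in females (red circles) and males (blue squares). Every interval reaches across 0 in both sexes, and Sdf2l1 has the widest.

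In male hearts no member passed either, and the side of 0 on which several lay rested on 1 library. Exercised males had the higher mean for 9 of 10 members, Ddit3 being the exception. By edgeR, 0 members and 0 genes (0%) had an adjusted p under 0.05, and at an unadjusted p under 0.05 there were 0 members beside 1271 genes (7.84%). No member's groups failed to overlap, beside 12.3% of genes, and DESeq2 called 24 genes and voom 0, none of them a member. Sdf2l1 had the largest log2 fold change, 0.65 ± 0.31 (SE; unadjusted p = 0.0644 by edgeR), and stood at 0.16 without male exercised 2. Creld2 was at 0.24 ± 0.20, Herpud1 at 0.21 ± 0.19, Xbp1 at 0.21 ± 0.15, Atf4 at 0.16 ± 0.16, Dnajb9 at 0.15 ± 0.11, Pdia4 at 0.14 ± 0.21, Hspa5 at 0.12 ± 0.19, Hsp90b1 at 0.10 ± 0.13 and Ddit3 at -0.12 ± 0.21. Without male exercised 2, 5 of 10 members lay above 0 and the median came to -0.0079, against 0.16 with it. Hspa5 was then at -0.12, Hsp90b1 at -0.084, Pdia4 at -0.079 and Atf4 at -0.030. Without male sedentary 1, Ddit3 was at 0.032.

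The effects of exercise in females and in males were compared with each other in the same model, where a negative value means a lower effect in females. By edgeR, 0 members and 0 genes (0%) had an adjusted p under 0.05, while DESeq2 called 12 genes and voom 0, none of them a member. At an unadjusted p under 0.05 there was 1 member, Sdf2l1, beside 769 genes (4.74%). Sdf2l1 differed by -0.98 ± 0.44 (SE; unadjusted p = 0.0478, adjusted p = 0.93 by edgeR), and by -0.50 without male exercised 2. Creld2 differed by -0.58 ± 0.28 (unadjusted p = 0.0593 by edgeR), and by -0.36 without that library. Ddit3 differed the other way, by 0.56 ± 0.30 (unadjusted p = 0.0893 by edgeR), and by 0.74 without it. For Herpud1 (-0.012 ± 0.27) and Dnajb9 (0.0052 ± 0.15) the effects in females and males lay close together, with 95% intervals of the difference from -0.61 to 0.59 and from -0.32 to 0.33.

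Averaged over both sexes, no member passed, and 7 of 10 lay above 0 with a median of 0.098, beside 50.5% of all tested genes above 0. Without male exercised 2, 4 of 10 lay above 0 and the median was -0.066. By edgeR, 0 genes (0%) had an adjusted p under 0.05, with 11 by DESeq2 and 0 by voom. At an unadjusted p under 0.05 there were 0 members beside 1018 genes (6.28%). Atf4 was nearest to that limit, at 0.24 ± 0.11 (SE; unadjusted p = 0.0533 by edgeR) and 0.15 without male exercised 2. Dnajb9 followed at 0.15 ± 0.076 (unadjusted p = 0.0648 by edgeR), and Herpud1 was at 0.21 ± 0.14. For Hspa5 the average effect was 0.0009 ± 0.14, with an interval from -0.30 to 0.30. The 95% interval of each member therefore limits what these 12 libraries can show: for Hsp90b1 it ran from -0.25 to 0.17, and for Sdf2l1 from -0.33 to 0.64.

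Female and male hearts differed for more genes than exercised and sedentary hearts did, but no ER stress gene was among those called. Genes of the X and Y chromosomes were kept in the sex comparisons, and calls among them were not counted apart. Between sedentary females and sedentary males, edgeR called 358 genes (2.21%) and 0 members, DESeq2 876 and voom 458. The edgeR count was 68 without male sedentary 3, 97 without female sedentary 2, 106 without female sedentary 1, 131 without female sedentary 3 and 135 without male sedentary 1. It was 225 without female exercised 1, 234 without female exercised 2 and 236 without male sedentary 2, and 14 without the 3 libraries with atrial transcripts. The sedentary libraries are those against which exercise was set, so the comparisons share them. At an unadjusted p under 0.05 there were 2 members, Sdf2l1 and Ddit3, beside 18.4% of genes. The groups did not overlap for 2 members, Sdf2l1 and Dnajb9, beside 25.0% of genes, so these counts were close to the share over all genes. Sdf2l1 averaged 15.0 ± 1.96 CPM in sedentary females and 9.13 ± 1.86 CPM in sedentary males (SD, n = 3), a log2 fold change of 0.71 ± 0.31 (SE; unadjusted p = 0.0447, adjusted p = 0.26 by edgeR), and all 3 females lay above all 3 males. Its adjusted p was 0.0544 when only these 2 groups were fitted and 0.0571 without male exercised 2, the smallest of any member under any alternative. Ddit3 averaged 30.2 ± 6.06 CPM in sedentary females and 44.6 ± 8.86 CPM in sedentary males, a log2 fold change of -0.56 ± 0.21 (unadjusted p = 0.0234, adjusted p = 0.19 by edgeR). Library 3 of these females, at 35.8 CPM, was level with the lowest of these males, at 35.7 CPM. The log2 fold change of Ddit3 was -0.32 without the 3 libraries with atrial transcripts. Dnajb9 was at -0.10 ± 0.11, with every sedentary female below every sedentary male.

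**Figure D4:**
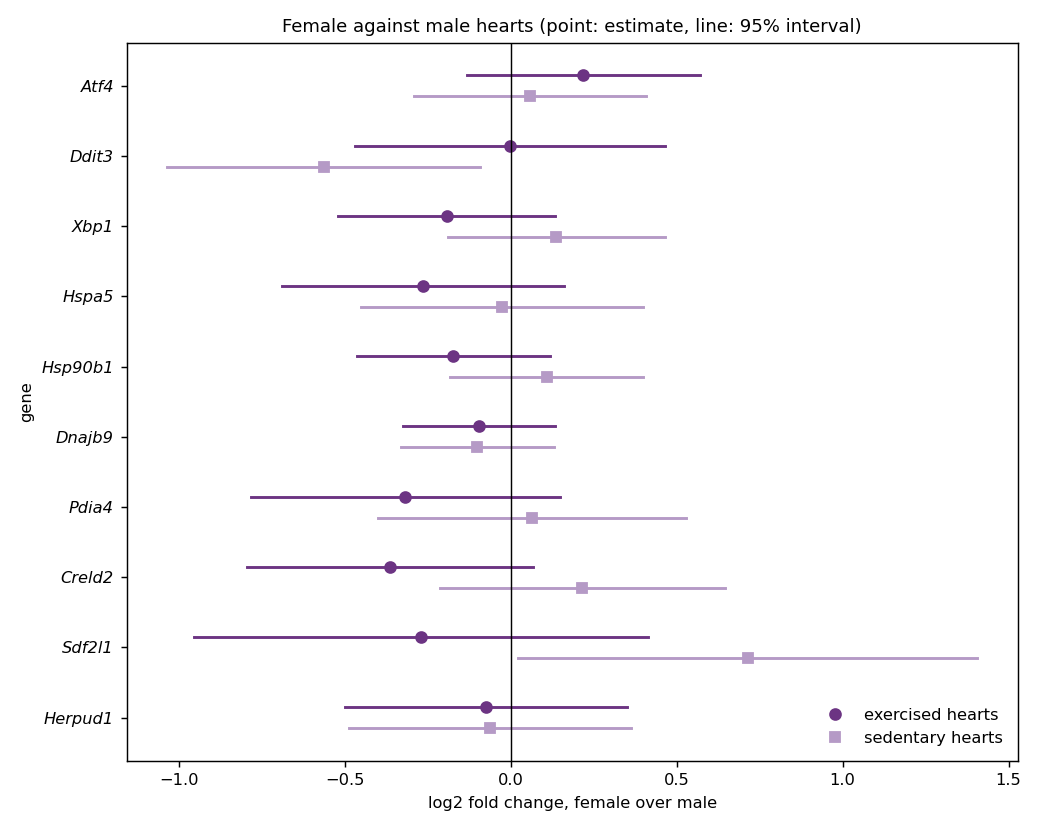
Log2 fold change of female over male hearts (horizontal axis; point, estimate; line, 95% interval) for each ER stress gene in exercised (dark circles) and sedentary hearts (light squares). The intervals of Sdf2l1, above 0, and of Ddit3, below 0, leave out 0 in sedentary hearts before adjustment over all genes, and no interval does in exercised hearts.

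Between exercised females and exercised males, edgeR called 26 genes (0.160%) and 0 members, DESeq2 167 and voom 22. The edgeR count was 55 without male exercised 1 and 17 without male exercised 3. At an unadjusted p under 0.05 there were 0 members beside 9.84% of genes, and no member's groups failed to overlap beside 14.3% of genes. Of the members, 9 of 10 lay below 0, that is lower in females, with a median of -0.18 and Creld2 lowest at -0.37 ± 0.20 (SE). Without male exercised 2, 5 of 10 lay below 0 and the median was -0.0027. Atf4, the only member above 0 with all libraries included, was at 0.22 ± 0.16 and at 0.41 without male exercised 2. Sdf2l1 was at -0.27 ± 0.31 and at 0.21 without male exercised 2.

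The wider pathway was described with lists of genes around the members, none of which holds a member. EdgeR called no gene of the pathway, heat shock and immediate early lists for exercise in either sex, while DESeq2 called the immediate early genes Jun, Klf2 and Dusp1 in males. Atf3 stands in both the ATF4 and the immediate early lists, and Derl3 in both the degradation and the plasma cell lists. Of 22 other ER chaperones and folding enzymes, 6 lay above 0 and 16 below in females (median log2 fold change -0.070), and 14 lay above and 8 below in males (0.031). This list also holds Crebrf, which is neither a chaperone nor a folding enzyme and lay below 0 in females and in males. The male values include male exercised 2, where the list deviated from its group by a mean of 0.146 on the log2 scale, against -0.118 in male exercised 1. Over all tested genes the shares above 0 were 50.1% in females and 50.1% in males. The 3 chaperone genes of smallest p in females were Pdia6, a disulfide isomerase, at -0.20 ± 0.088 (SE), Dnajc3, a co-chaperone that also inhibits PERK, at -0.15 ± 0.094, and Hyou1, which exchanges the nucleotide of BiP, at -0.27 ± 0.21. In males they were Ero1l, the oxidase that recharges disulfide isomerases, at -0.13 ± 0.088, Cdnf, a secreted ER protein, at -0.12 ± 0.10, and P4hb, the main disulfide isomerase, at 0.077 ± 0.068. The list of sensors and their processing holds 8 genes, among them Nfe2l2, an antioxidant transcription factor, and Eif2a, an initiation factor distinct from eIF2-alpha, which are neither sensors nor processing enzymes. Of these 8 genes, 6 lay above 0 in females and 5 in males. Atf6 was at 0.064 ± 0.12 in females, where it came to -0.097 without female exercised 2, and Eif2ak3, which encodes PERK, was at 0.20 ± 0.10 in males.

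Of 16 tested genes of ER-associated degradation, 10 lay above 0 in females (median 0.032) and 12 in males (0.035). Erlec1, a lectin of the degradation pathway, was at 0.17 ± 0.065 (SE) in females, and Vcp, the ATPase that pulls proteins out of the ER membrane, at 0.11 ± 0.061. Of 21 genes of translocation into and export from the ER, 9 lay above 0 in females and 10 in males, with medians of -0.0087 and -0.0018. Of 23 tested ATF4 and integrated stress response targets, 12 lay above 0 in females (median 0.0082) and 18 in males (0.10). Here too male exercised 2 was included, where the 25 listed genes deviated from their group by a mean of 0.138, against -0.105 in male exercised 1. Ppp1r15a, whose product directs a phosphatase to eIF2-alpha, was at 0.50 ± 0.31 in females, and Sesn2, a stress-induced inhibitor of growth signalling, at 0.44 ± 0.22 in males. The groups overlapped in each case, and Sesn2 averaged 5.97 CPM (SD 2.39) in exercised and 4.38 CPM (SD 0.278) in sedentary males. Eif4ebp1, a repressor of cap-dependent translation, was at -0.62 ± 0.18 in females and 0.35 ± 0.18 in males. Beside these lists, all 14 immediate early genes lay above 0 in both sexes, with medians of 0.43 in females and 0.64 in males, where the median was 0.36 without male exercised 2. The 14 heat shock genes, which also hold the mitochondrial chaperonin Hspd1 and its partner Hspe1, had medians of -0.034 in females and 0.10 in males, with Hspb1 at 0.59 ± 0.23 in males. Hspb1 averaged 626 CPM (SD 237) in exercised and 415 CPM (SD 41.5) in sedentary males, with overlapping groups.

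**Figure D5:**
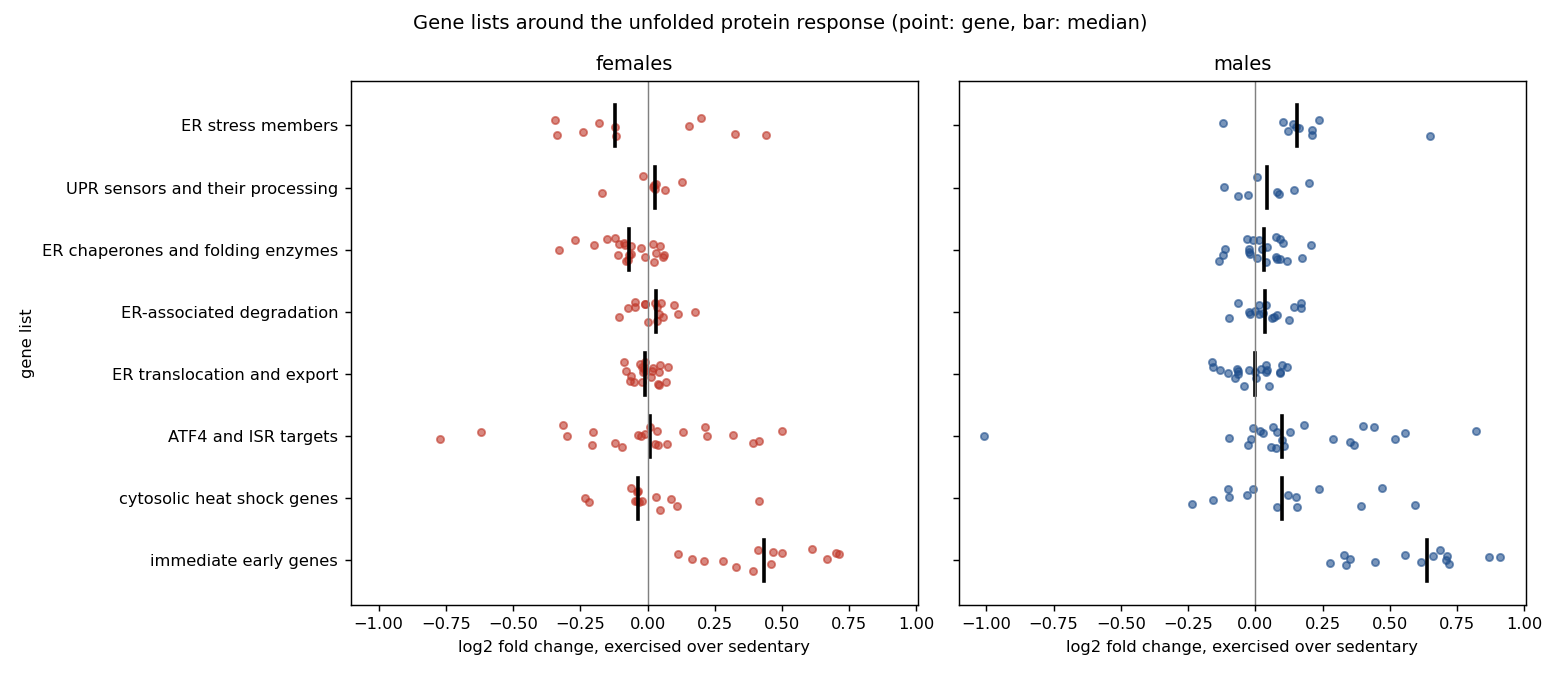
Log2 fold change of exercised over sedentary hearts (horizontal axis) of each tested gene (points) in the ER stress members and 7 related gene lists (rows) in females (left) and males (right), with the median as a black bar. The medians of the 4 lists of ER genes lie within 0.1 of 0 and those of the members at -0.12 in females and 0.16 in males, while the immediate early genes lie to the right in both sexes (ISR: integrated stress response; UPR: unfolded protein response).

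Between the sexes, edgeR called 2 genes of the pathway, heat shock and immediate early lists, Cdnf and Dusp1, both in sedentary hearts. DESeq2, which called more genes in general, also called Slc7a5 (adjusted p = 0.0155), Hspd1, Crebrf, Srp54a, Klf2 and Klf4 there. In exercised hearts it called Crebrf and Eif4ebp1 of these lists. Neither call held throughout, since Cdnf passed in 4 and Dusp1 in 3 of the 12 fits that left out 1 library, namely those without male exercised 2 or male sedentary 2 for both genes, those without female exercised 2 or male exercised 1 for Cdnf, and that without male exercised 3 for Dusp1. With all libraries, both also passed by DESeq2 (adjusted p = 0.00653 for Cdnf and 0.0068 for Dusp1) and by voom. Both passed in edgeR with RLE or upper quartile scaling and with a stricter filter on low counts, but not without the robust spread estimate. Among the marker lists, 1 of 7 fibroblast markers passed in sedentary and 1 in exercised hearts. Cdnf was lower in sedentary females, at 24.4 ± 2.37 CPM, against 33.3 ± 3.53 CPM in sedentary males (SD, n = 3), a log2 fold change of -0.45 ± 0.10 (SE; adjusted p = 0.0433 by edgeR). Dusp1, an immediate early phosphatase, was higher in sedentary females, at 722 ± 22.7 CPM, against 535 ± 69.7 CPM in sedentary males, a log2 fold change of 0.43 ± 0.11 (adjusted p = 0.0489 by edgeR). Of 23 tested ATF4 and integrated stress response targets, 18 lay above 0 in sedentary females against sedentary males, with a median of 0.27, where 52.4% of all genes lay above 0. Slc7a5, which imports large neutral amino acids, was at 0.78 ± 0.21 (adjusted p = 0.0665 by edgeR) and its partner Slc3a2 at 0.26 ± 0.094 in that comparison, while their regulator Atf4 was at 0.057 ± 0.16. Atf6 was at -0.35 ± 0.12 and its relative Atf6b at 0.24 ± 0.087.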

How the data were processed

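The authors deposited 1 table of raw counts, with 1 row per gene and no scaling. The tools named in the submitters' processing notes are Trimmomatic 0.36, STAR 2.5.2b and featureCounts of Subread 1.5.2, with the genome build GRCm38. Not given in the sources used here are the annotation release, the strand setting and the treatment of multimapping reads. All 12 columns were used.

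Of 55401 identifiers, 54349 matched the GENCODE annotation of GRCm38 used here with their version number and 55141 without it. A second row named Ddit3 held no counts and was not used. The 37 mitochondrial rows, which held 27.3% of the counts of female sedentary 2 and were at 0 elsewhere, were removed by the filter.

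The fit used R 4.3.3 with edgeR 4.0.16: filterByExpr, TMM scaling, 1 group-means model over 12 libraries with 8 residual degrees of freedom, and a robust quasi-likelihood F test of 6 contrasts, with Benjamini-Hochberg adjustment over 16213 genes at 0.05. The script was tested on simulated data. SE is the size of the unshrunken log2 fold change over the root of F. The printed log2 fold changes of edgeR are shrunken by a prior count, and the 95% intervals are centred on them. CPM use TMM library sizes, log2 CPM a prior count of 2. Alternatives were RLE and upper quartile scaling, other filters, DESeq2 1.42.0, voom of limma 3.58.1, no robust spread, an adjusted p of 0.1, only the groups compared, each library left out, and the libraries with atrial transcripts left out. DESeq2 adjusted over 3379 to 33215 genes, depending on the contrast, so its counts of called genes rest on other sets of genes than those of edgeR. Libraries of the groups share no replicate numbers, so no pairing was used. Precision was taken from the spread between libraries, which includes counting error.

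The members and all gene lists were chosen with earlier results of these data known. Named are all members, and from each of the pathway, heat shock and immediate early lists every gene called and otherwise up to 3 genes of smallest p per exercise contrast and 2 per sex contrast, of which the text gives a part. Markers are given as list totals. Protein sequences were not examined.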

Additional observations from a re-analysis of the deposited data

Results flagged for a closer look

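Eif4ebp1, which encodes a repressor of cap-dependent translation and is listed among the ATF4 and integrated stress response targets, was set apart because its exercise effect ran in opposite directions in the sexes with no overlap. In either direction, exercised and sedentary groups did not overlap for 9.79% of tested genes in females and 12.3% in males. How many genes did so in both sexes with opposite directions was not counted. The tests below use the values by which this gene was picked, so they only describe it. It stood at 37.8, 39.4 and 65.9 CPM in exercised females, all below the 73.5, 67.0 and 79.8 CPM of sedentary females. It stood at 76.8, 87.7 and 73.9 CPM in exercised males, all above the 64.1, 64.7 and 57.9 CPM of sedentary males. The effect in females minus that in males was -0.974 on the log2 scale, with an SE of 0.25 (unadjusted p = 0.00275, adjusted p = 0.93 by edgeR), and lay between -1.28 and -0.83 when each library was left out. DESeq2 gave the same difference an adjusted p of 0.0339. The difference thus passed in DESeq2, which adjusted over 3379 genes here, and did not pass in edgeR, which adjusted over 16213. Without female exercised 3, edgeR called it, and also the effect in females, which was then -0.93. Between exercised females and exercised males its log2 fold change was -0.74, with an SE of 0.18 (unadjusted p = 0.0018, adjusted p = 0.195 by edgeR), and DESeq2 gave it an adjusted p of 0.00435. Without female exercised 3 it was -1.04 and passed in edgeR as well.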

How the results depend on the processing

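Over 60 values (10 members in 6 contrasts) and 1240 alternative values, 1180 kept their direction and 60, in 23 of the values, did not. No member had an adjusted p under 0.05 under any of the 21 alternative fits. The number of genes called moved more. With DESeq2 it was 1 for exercise in females, 24 in males, 12 for the difference and 11 over both sexes, and 876 for sex in sedentary and 167 in exercised hearts. At an adjusted p of 0.1 it was 816 and 41 for sex in sedentary and exercised hearts. It was 14 for sex in sedentary hearts without the libraries with atrial transcripts, which left 1 sedentary female, assumed to vary like the other groups. For sex in exercised hearts it was 48 with no filter and 15 with only the 2 groups fitted. With each library left out, the count ran from 0 to 1 for exercise in females, for the difference and over both sexes, from 68 to 462 for sex in sedentary hearts and from 17 to 55 in exercised hearts. Fewer libraries enter these fits, and otherwise the cause was not tested.

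Some log2 fold changes turned in direction. Under voom these were Herpud1 for the difference (0.015), Hspa5, Sdf2l1 and Xbp1 over both sexes (-0.066, -0.034 and -0.009), and Ddit3 for sex in exercised hearts (0.101). With upper quartile scaling Hspa5 over both sexes was -0.007 and Ddit3 for sex in exercised hearts 0.016, and with the stricter filter they were -0.001 and 0.000. Without the libraries with atrial transcripts, Herpud1 for the difference was 0.245, Hspa5 for sex in sedentary hearts 0.099, and for sex in exercised hearts Ddit3 was 0.093 and Dnajb9 0.006.

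With each library left out, Hspa5 ran from -0.276 to 0.010 for exercise in females, from -0.116 to 0.295 in males, from -0.118 to 0.088 over both sexes and from -0.093 to 0.035 for sex in sedentary hearts. Ddit3 ran from -0.304 to 0.032 for exercise in males and from -0.175 to 0.180 for sex in exercised hearts. Atf4 ran from -0.030 to 0.253 for exercise in males and from -0.064 to 0.134 for sex in sedentary hearts. Hsp90b1 ran from -0.084 to 0.237 for exercise in males, from -0.133 to 0.027 over both sexes and from -0.309 to 0.012 for sex in exercised hearts. Pdia4 ran from -0.079 to 0.346 for exercise in males, from -0.160 to 0.053 over both sexes and from -0.015 to 0.140 for sex in sedentary hearts. Herpud1 ran from -0.199 to 0.136 for the difference, from -0.212 to 0.126 for sex in sedentary and from -0.235 to 0.073 in exercised hearts. Dnajb9 ran from -0.092 to 0.132 for the difference and from -0.191 to 0.033 for sex in exercised hearts. Sdf2l1 ran from -0.087 to 0.298 over both sexes and from -0.556 to 0.215 for sex in exercised hearts. Xbp1 ran from -0.045 to 0.127 and Creld2 from -0.166 to 0.052 over both sexes. Atf6 ran from -0.097 to 0.135 for exercise in females and Selenos from -0.027 to 0.232 in males. The correlations without male exercised 2 were chosen after seeing the data. No paired analysis was possible because no replicate number in the labels is shared between groups.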
